A study of Arabidopsis thaliana with 18 samples.

Results

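The genes described here are the 10 nuclear genes for the enzymes that turn plastid linolenic acid into the reduced jasmonate precursor: *LOX2*, *LOX3*, *LOX4*, *LOX6*, *AOS*, *AOC1*, *AOC2*, *AOC3*, *AOC4* and *OPR3*. They were chosen by locus, from their place in the pathway, with earlier results of these data known, and are 10 of the 24532 genes listed. Each was read through its lowest-numbered splice variant, and all 10 passed the filter on low counts, as did 25202 of the 32294 variants.

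Jasmonates are oxylipin hormones that leaves make on wounding and that control defence, growth and stamen development. In the chloroplast, lipoxygenases add oxygen to linolenic acid (at carbon 13, hence 13-lipoxygenases), allene oxide synthase (AOS) turns the product into an unstable allene oxide, and allene oxide cyclases (AOC) close its ring to give 12-oxophytodienoic acid (OPDA). OPDA is reduced in the peroxisome by OPR3 and shortened by beta-oxidation, and the jasmonic acid formed is joined to isoleucine by JAR1 to give the form that the receptor COI1 perceives. Many of these genes are themselves known to be induced by jasmonate in leaves.

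The libraries were made from Arabidopsis thaliana (Columbia-0) mesophyll protoplasts, which are leaf cells freed of their walls, from rosette leaves of 23-day-old plants grown in continuous light. Protoplasts were sampled when freshly isolated (Day 0) and after 4 or 6 days (Day 4 and Day 6) in alginate gels, in the dark, in Gamborg B5 medium with the auxin 2,4-D and the cytokinin-like thidiazuron. Wild type (WT) was compared with the double mutant *nph4-1 arf19-1*, which carries loss-of-function alleles of the auxin response factor genes *ARF7* (*nph4-1*) and *ARF19*, with 3 biological replicates in each of the 6 groups. The labels name yucasin, an inhibitor of auxin synthesis, as the treatment of the 3 *nph4-1 arf19-1* libraries of Day 6 and of no other library, whereas the study's methods name none in this experiment, so yucasin cannot be told apart from genotype at Day 6, nor from time in any change of the mutant to Day 6. Coordinates are on the TAIR10.1 build of RefSeq. The questions were how the genes changed in culture, and whether the 2 genotypes differed.

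The depth of the libraries, by the authors' totals, was 3438524 to 12119944 reads (median 6291177), so that 3 reads, taken as the floor of detection, stand for 0.248 to 0.872 CPM (counts per 1000000 library reads). Levels are given as CPM after trimmed-mean (TMM) scaling, changes are log2 fold changes (log2FC) ± SE from edgeR's quasi-likelihood test over all tested variants, and a gene was called at a false discovery rate (FDR) below 0.01. *ARF7* at Day 0 was at 159 ± 6.61 CPM in WT and at 44 ± 6.41 CPM in the mutant (SD over 3 libraries). The *ARF7* gene overlaps *AT5G20720* on the opposite strand, and *ARF19* overlaps *AT1G19210* on the same strand. How far reads of these neighbours entered the counts was not tested. *ARF19* was at 9 ± 2.12 CPM in WT and 11.3 ± 1.55 CPM in the mutant at Day 0, where the groups overlapped, so it did not separate the genotypes in fresh protoplasts. It was at 52.4 ± 9.22 and 9.57 ± 0.618 CPM at Day 4 and at 73.2 ± 7.15 and 8.82 ± 1.56 CPM at Day 6, lower in the mutant on both days. The mesophyll markers *CAB3* and *RBCS1A* together held 107 to 1515 CPM in every library. Among the 3 epidermis markers *PDF1* was at or near 0 and their sum reached 6.19 CPM, and the 3 guard cell markers together stayed at or below 1.68 CPM at Day 0 and lay between 4.04 and 12.6 CPM in culture. The 3 phloem markers together were at 23.5 to 27.3 CPM in WT and 0.926 to 1.71 CPM in the mutant at Day 6. In bulk libraries fewer cells of a type and less RNA per cell cannot be told apart.

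At Day 0 in WT, per kilobase of transcript, *AOS* and *AOC2* stood above all 4 lipoxygenases. *AOC2* was the most abundant of the 10 genes at 1624 CPM per kilobase, followed by *AOS* at 685, *AOC1* at 516 and *AOC3* at 172. *OPR3* (130) and *LOX2* (128) were alike on this scale, *LOX3* was at 93.2 and *LOX4* at 24.9, and *LOX6* (2.35) and *AOC4* (1.16) were lowest. At Day 6 in WT the order on the same scale was *AOC3* (88.1), *OPR3* (84.3), *LOX2* (80.9), *AOS* (67.7), *AOC4* (57.5), *LOX4* (42.4), *LOX3* (38.5), *AOC2* (24.1), *AOC1* (18.6) and *LOX6* (3.93).

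**Figure D1:**
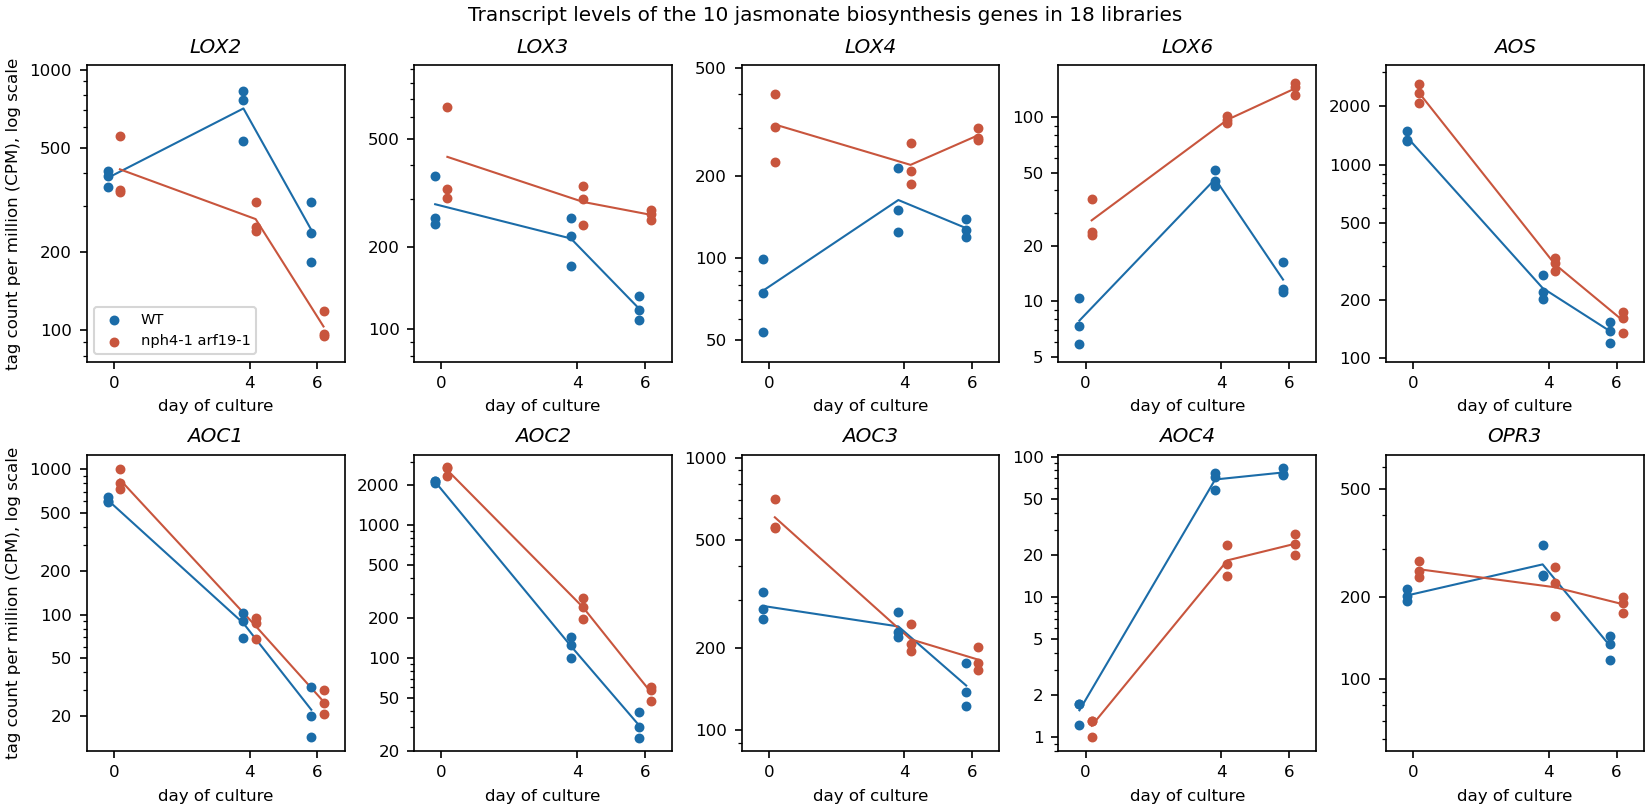
Level of each gene in every library in TMM-scaled CPM (log axis), by day and genotype, with points for libraries and a line through the group means. In WT, *AOC2* went from 2142 CPM in a Day 0 library down to 25 in a Day 6 library, while *AOC4* went from 1.22 up to 83.

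In culture *AOS*, *AOC1* and *AOC2* fell many-fold and *AOC4* rose many-fold, in both genotypes. *LOX6* was also higher than at Day 0, but in WT it was 5.71-fold higher at Day 4 and only 1.63-fold higher at Day 6. The other genes changed by at most 4.01-fold against Day 0 (*LOX2* in the mutant at Day 6). Most of all variants also changed, in both directions, and the share of the 10 genes called at Day 4 was near that background. Between Day 0 and Day 4 in WT, 7 of the 10 were called, 4 higher and 3 lower, where 79.5% of all tested variants were called (42.6% higher and 37% lower). Between Day 0 and Day 6 all 10 were called in WT, 3 higher and 7 lower (81.6% of all variants, 43.9% higher and 37.7% lower). In *nph4-1 arf19-1* the counts were 7 at Day 4, 2 higher and 5 lower (75% of all variants, 39% higher and 36.1% lower), and 9 at Day 6, 2 higher and 7 lower (76.1%, 40.2% higher and 35.9% lower). A change beyond a log2FC of 2 in size as well was found for 5 and 4 genes in WT (39.4% and 42.5% of all variants) and for 4 and 6 in the mutant (32.7% and 36.1%). The median log2FC of the 10 genes at Day 6 was -0.82 in WT and -1.22 in the mutant, beside 0.23 and 0.21 over all variants.

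Directions of small changes against Day 0 depend on the scaling. The TMM factors ran from 0.564 to 1.5 and were below 1 in every Day 0 library and above 1 in every cultured one, and with library totals alone the median log2FC of all variants against Day 0 moved from 0.231 to 1.26 (Day 4) and from 0.233 to 1.40 (Day 6) in WT, and from 0.178 to 1.19 and from 0.205 to 1.10 in the mutant. With library totals alone the WT calls became 6 higher and 3 lower at Day 4 and 4 higher and 3 lower at Day 6, and the mutant calls 3 higher and 4 lower at Day 4 and 4 higher and 5 lower at Day 6. The falls of *AOS*, *AOC1* and *AOC2* and the rises of *AOC4* and *LOX6* kept their direction under either scaling, in both genotypes and on both days. Both mesophyll markers together were at 424 to 624 CPM in WT at Day 0, 107 to 264 CPM at Day 4 and 270 to 407 CPM at Day 6, and at 654 to 1515, 126 to 194 and 109 to 199 CPM in the mutant, and their part in these changes was not tested.

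*LOX2* (*AT3G45140*, chr3:16525245-16529352, plus strand, 7 exons) encodes the lipoxygenase that makes most of the jasmonate of wounded leaves. It was at 389, 409 and 354 CPM in the WT libraries of Day 0, 530, 767 and 831 at Day 4, then 310, 182 and 236 at Day 6. The 3 days did not overlap, with Day 4 highest: log2FC was 0.88 ± 0.21 from Day 0 to Day 4 (FDR = 0.000512) and -1.55 ± 0.21 from Day 4 to Day 6 (FDR = 1.28e-05). In *nph4-1 arf19-1* it was at 346, 558 and 339 CPM, then 250, 241 and 310, then 119, 96.4 and 94.8, so it was lower on each later day. By Day 6 the mutant had fallen 4.01-fold from Day 0 (FDR = 3.43e-08), a change in which time and yucasin cannot be told apart. The smaller WT change from Day 0 to Day 6 (-0.66 ± 0.21, FDR = 0.00545) turned to 0.51 with library totals alone and was no longer called when any 1 of 4 of its 6 libraries was left out (WT Day 0 replicates 1 and 2, WT Day 6 replicates 2 and 3). The mutant's change from Day 0 to Day 4 (-0.64 ± 0.21) turned to 0.37 with library totals alone and shrank to -0.32 without *nph4-1 arf19-1* Day 0 replicate 2, and it was also no longer called without Day 4 replicate 1 or 2.

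*LOX3* (*AT1G17420*, chr1:5977323-5981521, plus strand, 8 exons) and *LOX4* (*AT1G72520*, chr1:27308513-27312756, plus strand, 6 exons) encode a closely related pair of lipoxygenases, with 80.6% identical coding bases, that act together in stamen development. *LOX3* was at 364, 243 and 256 CPM in WT at Day 0, 257, 170 and 219 at Day 4, then 118, 108 and 132 at Day 6, the last group below all the others (log2FC -1.27 ± 0.23 against Day 0, FDR = 3.93e-05, and -0.10 with library totals alone, no longer called). In the mutant it was at 328, 656 and 304 CPM, then 337, 242 and 301, then 251, 273 and 265. The Day 0 group of the mutant rests on 1 high library, and the change to Day 6 (-0.71 ± 0.23, FDR = 0.00795) was -0.21 without that library, replicate 2, was no longer called without any 1 of the 3 Day 6 libraries either, and turned to 0.18 with library totals alone. *LOX4* moved the other way in WT, from 74.6, 99.6 and 53.4 CPM at Day 0 to 215, 125 and 151 at Day 4 (1.10 ± 0.22, FDR = 0.000122) and 127, 120 and 140 at Day 6 (0.76 ± 0.22, FDR = 0.00343). All cultured WT libraries lay above all fresh ones, although the Day 6 call was lost without WT Day 0 replicate 1 or 3 or WT Day 6 replicate 3. In the mutant *LOX4* was at 226, 400 and 304 CPM at Day 0, 264, 187 and 210 at Day 4, then 272, 276 and 302 at Day 6, and neither change against Day 0 was called (-0.49 ± 0.22 and -0.13 ± 0.22, and 0.52 and 0.77 with library totals alone).

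*LOX6* (*AT1G67560*, chr1:25319804-25324581, plus strand, 9 exons) encodes a lipoxygenase known for jasmonate synthesis in roots and in vascular tissue of leaves. It was the least abundant lipoxygenase at Day 0, with 7.31, 10.4 and 5.89 CPM in WT, and rose to 51.5, 42.1 and 44.9 CPM at Day 4 (2.51 ± 0.20, a 5.71-fold rise, FDR = 2.37e-10) before it fell to 11.3, 11.7 and 16.4 at Day 6. In *nph4-1 arf19-1* it stood at 23, 35.9 and 23.7 CPM at Day 0, 96, 92.4 and 102 at Day 4, then 145, 132 and 153 at Day 6 (the libraries labelled yucasin), higher on each later day without overlap. From Day 4 to Day 6, then, WT fell (-1.80 ± 0.18, FDR = 3.29e-07), while the mutant's 0.57 ± 0.16 (FDR = 0.00928) was no longer called when any 1 of its 6 libraries was left out. The difference of WT Day 6 from Day 0 (0.71 ± 0.21) was likewise lost without WT Day 0 replicate 1 or 3 or WT Day 6 replicate 3.

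*AOS* (*AT5G42650*, chr5:17097564-17099595, minus strand, 1 exon) is the single gene in Arabidopsis for allene oxide synthase, the first enzyme committed to the OPDA branch. It was at 1328, 1500 and 1346 CPM in WT at Day 0, 220, 202 and 269 at Day 4, then 138, 120 and 154 at Day 6. In *nph4-1 arf19-1* it was at 2096, 2614 and 2339 CPM, then 281, 328 and 309, then 161, 174 and 135. No library of one day reached a library of another within a genotype. The fall by Day 6 was 10.1-fold in WT (-3.34 ± 0.15, FDR = 2.49e-14) and 15-fold in the mutant (-3.90 ± 0.15, FDR = 7.17e-15), and most of it had taken place by Day 4 (-2.59 ± 0.14 and -2.94 ± 0.15).

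*AOC1* (*AT3G25760*), *AOC2* (*AT3G25770*) and *AOC3* (*AT3G25780*) encode allene oxide cyclases and lie in a row on the plus strand of chromosome 3 (chr3:9403779-9405338, chr3:9406669-9408071 and chr3:9409160-9411090, 2 exons each), and *AOC4* (*AT1G13280*), the other cyclase gene, is on chromosome 1 (chr1:4547388-4548894, plus strand, 2 exons). *AOC2* showed the largest fall of the 10 genes, from 2142, 2060 and 2130 CPM in WT at Day 0 to 143, 99.7 and 126 at Day 4, then 38.9, 25 and 30 at Day 6. In the mutant it went from 2689, 2712 and 2350 CPM to 241, 282 and 197 and then 60.6, 57.2 and 47.4. Each day lay clear of the next in both genotypes, and the fall by Day 6 was 67.5-fold in WT (-6.08 ± 0.20, FDR = 4.54e-16) and 46.8-fold in the mutant (-5.55 ± 0.20, FDR = 2.24e-15). *AOC1* fell beside it, from 606, 642 and 596 CPM in WT at Day 0 to 31.8, 14.4 and 20.1 at Day 6 (-4.80 ± 0.24, FDR = 1.90e-13), and from 802, 1011 and 734 to 30.4, 24.4 and 20.7 in the mutant (-5.07 ± 0.25, FDR = 1.89e-13). *AOC3* changed less: in WT it was at 280, 323 and 256 CPM at Day 0, 220, 229 and 273 at Day 4, then 138, 123 and 177 at Day 6, and the Day 6 change of -0.97 ± 0.15 (FDR = 4.08e-06) turned to 0.20 with library totals alone. In the mutant *AOC3* fell from 560, 704 and 553 CPM to 208, 195 and 245 by Day 4 (-1.49 ± 0.15, FDR = 1.27e-08) and was at 176, 202 and 167 at Day 6.

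*AOC4* moved against the rest of its family. At Day 0 it rested on 6 to 13 reads a library, at 1.73, 1.71 and 1.22 CPM in WT and 1.31, 0.998 and 1.31 in *nph4-1 arf19-1*. In WT it reached 57.8, 71.9 and 76.8 CPM at Day 4 and 83, 73.5 and 75.2 at Day 6, and in the mutant 17.1, 14.1 and 23.5 and then 19.8, 28.3 and 23.8. All cultured libraries stood above all fresh ones, with a rise by Day 6 of 48.5-fold in WT (5.60 ± 0.22, FDR = 5.94e-15) and 20-fold in the mutant (4.32 ± 0.27, FDR = 6.22e-12), while Days 4 and 6 overlapped in both genotypes.

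*OPR3* (*AT2G06050*, chr2:2359114-2362375, minus strand, 5 exons) encodes the peroxisomal OPDA reductase of the pathway and was the steadiest of the 10 genes, with no change beyond about 2-fold in any comparison. In WT it was at 214, 201 and 193 CPM at Day 0, 239, 241 and 311 at Day 4, then 134, 117 and 144 at Day 6, and in the mutant at 237, 272 and 250, then 225, 170 and 257, then 190, 200 and 175. WT Day 6 was the lowest group in the series (-0.62 ± 0.14 against Day 0, FDR = 0.000307, and 2-fold below Day 4, FDR = 1.65e-05), although the change against Day 0 became 0.55 with library totals alone. The mutant's change by Day 6 (-0.42 ± 0.14, FDR = 0.00803) was no longer called when any 1 of its 6 libraries was left out, and was 0.48 with library totals alone. Variants 2 and 3 of *OPR3* held 99.3 to 100% and 90.7 to 95.5% of the counts of variant 1, so the values do not separate its transcripts.

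**Figure D2:**
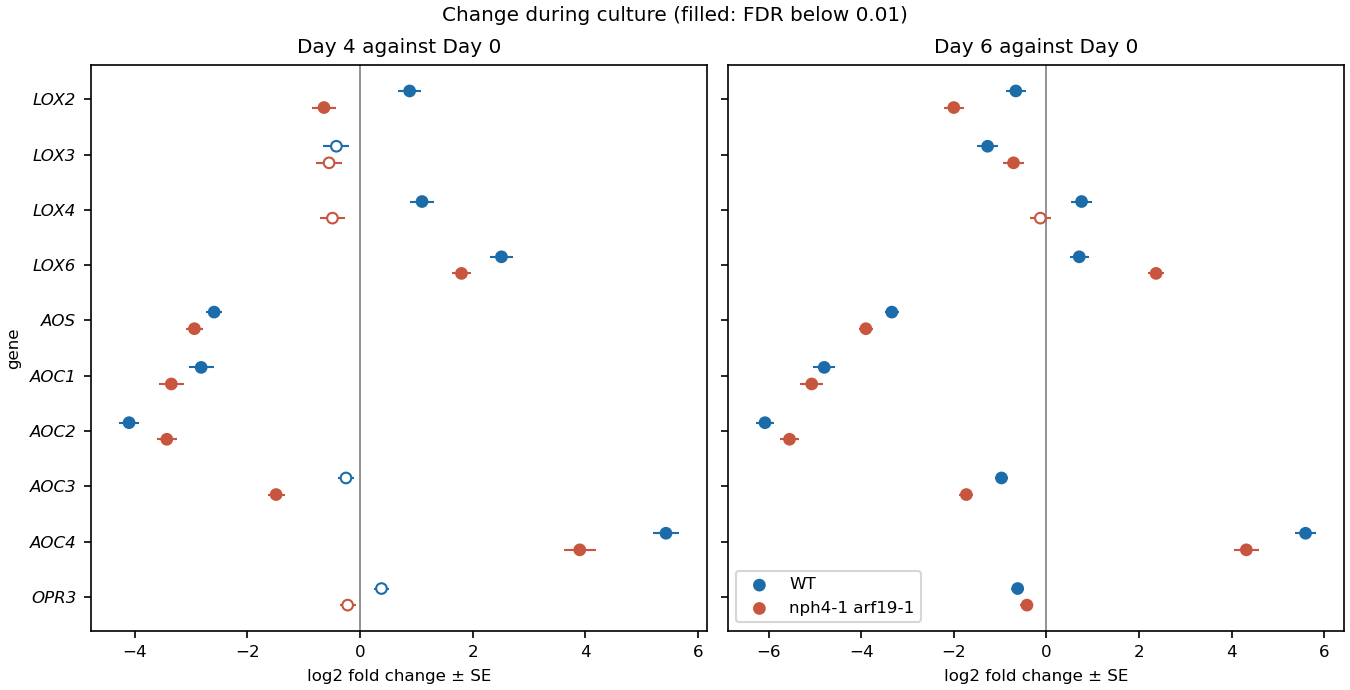
Log2 fold change of each gene against Day 0 of the same genotype at Day 4 and Day 6, with bars of ± 1 SE. In WT at Day 6 the values ran from -6.08 for *AOC2* to 5.60 for *AOC4*, with *AOS* and *AOC1* below -3 and *LOX6* and *LOX4* above 0.

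Between Day 4 and Day 6 the movement was downward in WT: 8 of the 10 genes were called and all 8 were lower (21.1% of all variants were called, 9.27% higher and 11.8% lower), with a median log2FC of -0.93 beside 0.01 over all variants. None of the 8 reached a log2FC of 2 in size (1.96% of all variants did). *LOX4* (-0.34 ± 0.22) and *AOC4* (0.17 ± 0.14) were the genes not called, and leaving out any 1 of 5 of the 6 libraries (WT Day 4 replicates 1 and 3 and each WT Day 6 library) ended the call of *LOX3* (-0.85 ± 0.23). In *nph4-1 arf19-1*, where time and yucasin cannot be told apart, 5 genes were called, 1 higher (*LOX6*) and 4 lower (*LOX2*, *AOS*, *AOC1* and *AOC2*), where 19.4% of all variants were called, 10.7% higher and 8.65% lower, and *AOC2* alone went beyond a log2FC of 2 in size (1.63% of all variants). Neither scaling nor the genotype changed the sign of the *AOS*, *AOC1* and *AOC2* differences between these days.

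Because the shares of a family within a library do not depend on library scaling, the composition of the lipoxygenase and cyclase families was also followed, per kilobase. Of the cyclase transcripts in WT, *AOC2* made up 70.2 ± 1.64% at Day 0, 26.1 ± 5.24% at Day 4 and 12.7 ± 1.84% at Day 6 (SD, n = 3), while *AOC4* went from 0.0499 ± 0.00896% to 14.1 ± 1.5% and 30.8 ± 3.25% and *AOC3* from 7.45 ± 0.851% to 39.8 ± 1.07% and 46.7 ± 5.71%. In *nph4-1 arf19-1* *AOC2* was at 64.9 ± 2.59%, 46.3 ± 7.15% and 22.2 ± 1.71% of the family and *AOC4* at 0.0297 ± 0.00677%, 3.43 ± 0.959% and 9.37 ± 1.49%. The ranges of the *AOC4* share did not overlap between genotypes on any day, and neither did those of the *AOC2* share. At Day 0, however, the *AOC4* share rests on 6 to 13 reads a library. The *AOC4* level itself overlapped between the genotypes on that day (log2FC -0.40 ± 0.43), while the summed level of the family was higher in the mutant. The summed level of the family, unlike the shares, does depend on the scaling. In TMM-scaled CPM it was much the same in both cultures, with 519 CPM in WT and 557 CPM in the mutant at Day 4 and 277 and 286 CPM at Day 6. It was down from 3013 and 4039 CPM when fresh. At Day 6 the TMM factors were 1.443 to 1.495 in WT and 1.088 to 1.134 in the mutant, and genotype and yucasin cannot be told apart. The sum with library totals alone was not taken.

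Among the lipoxygenases *LOX2* held the largest share in WT throughout (51.7 ± 3.88%, 62.9 ± 10.4% and 48.3 ± 6.18% by day). In the mutant it held 36 ± 1.89%, 31.3 ± 3.8% and 13.5 ± 1.89%, below every WT library of the same day. *LOX6* rose from 2.17 ± 0.152% to 10.2 ± 0.921% and 16.8 ± 0.876% of the family in the mutant, against 0.946 ± 0.253%, 3.73 ± 0.64% and 2.4 ± 0.53% in WT, and at Day 6 *LOX4* was the largest in the mutant at 36.4 ± 1.32%, close to *LOX3* at 33.3 ± 1.72%. The level of *LOX4* relative to *LOX3* was alike in the 2 genotypes in culture (mean log2 ratio -0.41 in both at Day 4, and 0.12 in WT and 0.11 in the mutant at Day 6), whereas at Day 0 it was -1.94 ± 0.57 in WT and -0.42 ± 0.37 in the mutant.

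**Figure D3:**
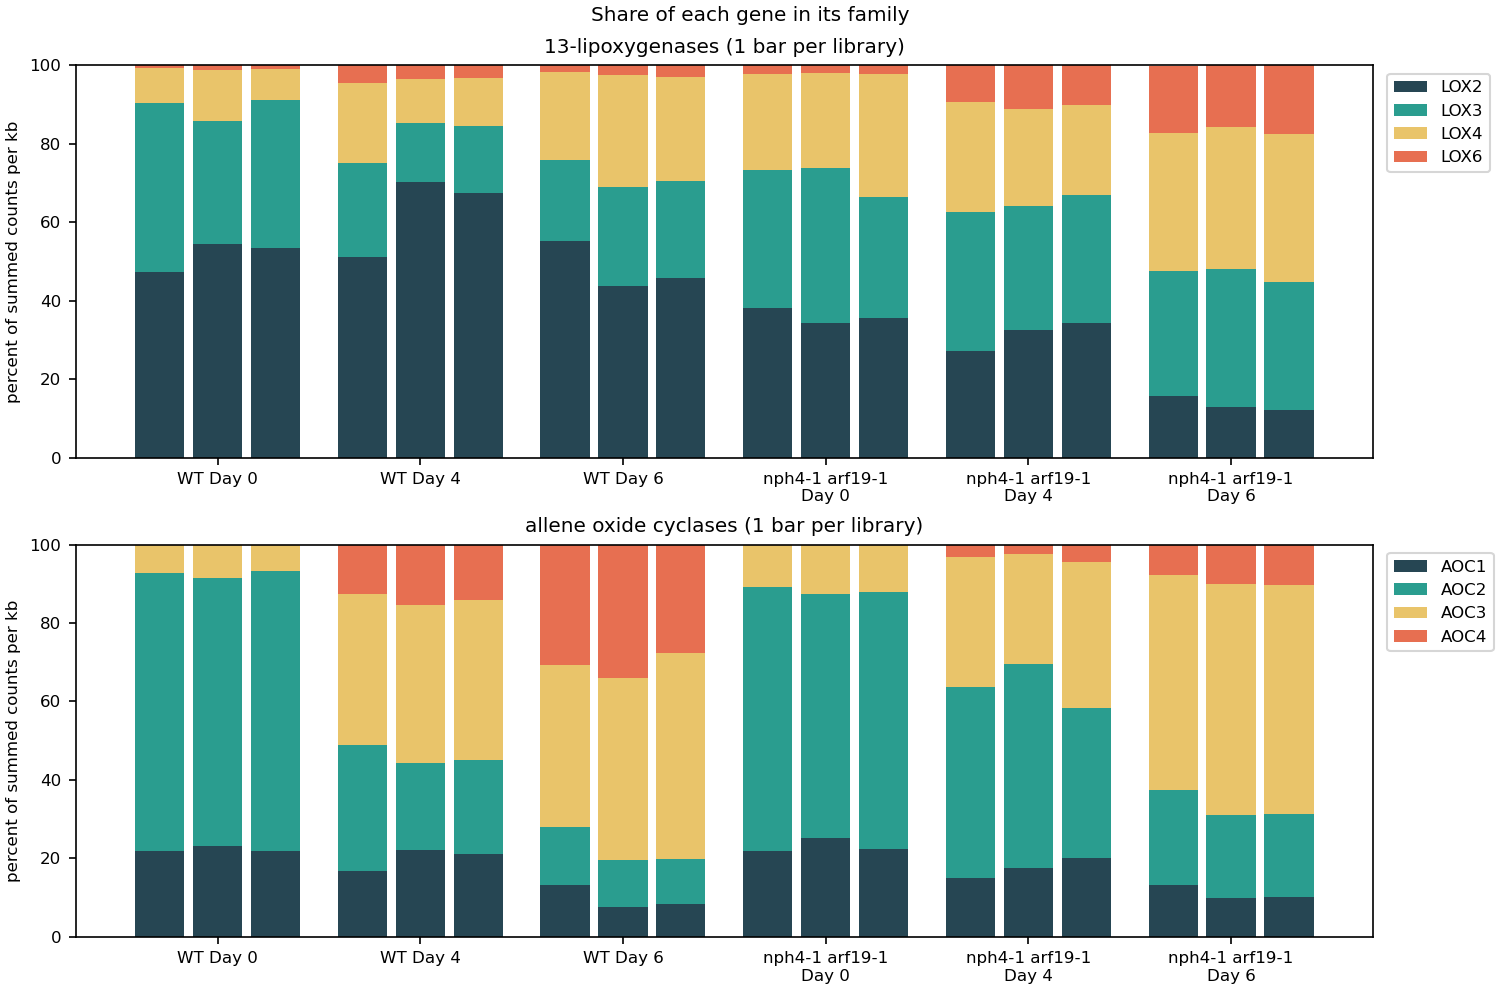
Share of each gene in the summed per-kilobase CPM of the lipoxygenase and cyclase families, in percent, with 1 bar per library and 3 libraries per group. *AOC2* makes up 70.2% of the cyclase family in fresh WT protoplasts, and *AOC3* and *AOC4* make up 46.7% and 30.8% at Day 6.

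Over the 18 libraries *AOS*, *AOC1* and *AOC2* moved together (Pearson's r of log2 CPM 0.98 for each pair), and *AOC4* ran against *AOC2* and *AOS* (-0.94 for both). These are descriptions over libraries that share day and genotype, not tests. The 250 bases before the start of 5 genes are printed here to set their promoters side by side. *AOS* and *AOC2* fell many-fold, and *AOC4* rose most. Between the genotypes *LOX2* and *LOX6* differed on both days of culture, as did *AOC2* and *AOC4*, and *LOX6* already differed at Day 0. The printed bases are from RefSeq TAIR10.1, 5′ to 3′ on the strand of the gene, with matches to the searched motifs in capitals.

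AOS, chr5:17099596-17099845, minus strand: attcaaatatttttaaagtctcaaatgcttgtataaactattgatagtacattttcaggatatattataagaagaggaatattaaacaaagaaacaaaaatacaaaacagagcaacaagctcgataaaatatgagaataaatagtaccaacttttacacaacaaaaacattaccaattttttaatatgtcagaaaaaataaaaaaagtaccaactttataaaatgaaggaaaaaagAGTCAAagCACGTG
AOC2, chr3:9406419-9406668, plus strand: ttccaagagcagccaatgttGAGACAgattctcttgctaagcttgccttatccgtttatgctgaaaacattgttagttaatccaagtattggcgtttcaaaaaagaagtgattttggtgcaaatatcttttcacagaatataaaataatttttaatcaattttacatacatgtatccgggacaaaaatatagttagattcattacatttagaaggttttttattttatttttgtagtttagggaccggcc
AOC4, chr1:4547138-4547387, plus strand: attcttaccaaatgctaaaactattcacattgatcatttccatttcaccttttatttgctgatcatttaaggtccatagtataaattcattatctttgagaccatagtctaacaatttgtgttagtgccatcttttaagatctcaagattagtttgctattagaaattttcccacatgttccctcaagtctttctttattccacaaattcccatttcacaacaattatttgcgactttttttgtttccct
LOX2, chr3:16524995-16525244, plus strand: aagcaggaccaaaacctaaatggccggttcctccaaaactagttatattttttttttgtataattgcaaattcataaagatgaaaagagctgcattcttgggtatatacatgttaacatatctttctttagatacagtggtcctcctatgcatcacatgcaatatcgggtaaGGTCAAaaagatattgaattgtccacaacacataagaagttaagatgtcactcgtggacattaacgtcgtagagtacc
LOX6, chr1:25319554-25319803, plus strand: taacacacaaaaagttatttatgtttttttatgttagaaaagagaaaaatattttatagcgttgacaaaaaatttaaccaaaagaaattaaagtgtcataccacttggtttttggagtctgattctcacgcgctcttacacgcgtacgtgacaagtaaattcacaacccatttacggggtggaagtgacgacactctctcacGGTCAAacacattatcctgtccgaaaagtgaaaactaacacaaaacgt

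The motifs were searched on both strands from 250 bases before to 50 bases after each start. They were the G-box CACGTG, which *MYC2* and its relatives bind, the auxin response elements TGTCTC and TGTCGG, the W-box in the forms TTGACC and TTGACT, and the GCC-box AGCCGCC. *AOS* holds a G-box 6 bases before its start and next to it, at -14, a W-box read on the other strand (AGTCAA). *AOC2* holds TGTCTC, read on the other strand as GAGACA, at -230. W-boxes were in 5 of the 10 windows (*LOX2*, *LOX3*, *LOX6*, *AOS* and *AOC3*), a G-box in 1, TGTCTC in 1, and TGTCGG or the GCC-box in 0. Over all 27443 promoters of the same length the shares were 32.4% for the W-box, 7.68% for the G-box, 14.2% for TGTCTC, 5.12% for TGTCGG and 0.794% for the GCC-box. A match says only that the letters are present, and its absence only that they are not in this window.

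The 2 longest stretches shared by any pair of the 10 windows are printed, and they lie in close relatives, *AOC1* with *AOC2* and *LOX3* with *LOX4*. Over the 45 pairs the longest shared run had a median of 10 bases, and the 2 longest runs were 26 and 16 bases. Each was found in 2 of the 27443 promoters, which are the 2 genes themselves. The third longest run, of 14 bases, was likewise found in only 2 promoters. It lies in *LOX3* and *AOC1*, which belong to different families.

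AOC1 from -117 and AOC2 from -19: tgtagtttagggaccggccaaaagta
LOX3 from 17 and LOX4 from -96: aaaacgtgtggacggc

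*AOC1* and *AOC2* are 90.3% identical in coding sequence, and reads can be lost or misplaced between such genes. Of all 50-base windows of the transcripts, 2.1% of *AOC1*, 0.0799% of *AOC2* and 1.55% of *AOC3* occur exactly in another gene and none of the other members do, and 19.6%, 16.9% and 5.34% lie within 2 mismatches of another cyclase. The read length was not given, so how this affected *AOC1*, *AOC2* and *AOC3* was not tested.

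Comparing the genotypes on the same day, the mutant had more *LOX6* on all 3 days, less *LOX2* and *AOC4* and more *AOC2* on both days of culture, more *LOX4* at Days 0 and 6, more *LOX3* and *OPR3* at Day 6, and more *AOS* and *AOC3* at Day 0. At Day 0, 4 of the 10 genes were called and all 4 were higher in *nph4-1 arf19-1* (8.25% of all variants were called, 6.4% higher and 1.84% lower). At Day 4, 4 were called, 2 higher and 2 lower (27.8% of all variants, 14.8% higher and 13% lower). At Day 6, 7 were called, 5 higher and 2 lower (47.4%, 24% higher and 23.4% lower), and genotype and yucasin cannot be told apart in that count. A difference beyond a log2FC of 2 in size as well was found for 1 gene at Day 0 (*LOX4*, 1.34% of all variants), none at Day 4 (3.33%) and 1 at Day 6 (*LOX6*, 10.1%). The median log2FC of the 10 genes was 0.52, 0.17 and 0.42 on the 3 days, beside 0.03, -0.01 and -0.04 over all variants. With library totals alone the Day 6 calls were 3 higher and 2 lower, where the median over all variants moved from -0.0372 to -0.431, and those of Days 0 and 4 kept their split.

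*LOX6* differed most of the 10 genes at Day 6, the day on which genotype and yucasin cannot be told apart, while *LOX4* differed more at Day 0 and *AOC4* and *LOX2* more at Day 4. Its Day 0 libraries of the mutant (23, 35.9 and 23.7 CPM) lay above those of WT (5.89 to 10.4 CPM), with a log2FC of 1.78 ± 0.21 (FDR = 5.70e-06). The difference was 1.07 ± 0.16 at Day 4 (FDR = 3.17e-05) and 3.44 ± 0.18 at Day 6, a 10.8-fold higher level (FDR = 6.48e-12). The groups did not overlap on any day, and every call held when any 1 library was left out. The 3 phloem markers ran the other way at Day 6 (23.5 to 27.3 CPM together in WT and 0.926 to 1.71 in the mutant), all of it *SUC2*, with *APL* and *SWEET12* at 0 in every Day 6 library, and their part in the difference was not tested.

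*LOX4* was 4.07-fold higher in the mutant at Day 0 (2.02 ± 0.23, FDR = 3.67e-06), where the lowest mutant library (226 CPM) was above the highest of WT (99.6 CPM). At Day 4 the groups overlapped (0.43 ± 0.22, FDR = 0.126) and at Day 6 the mutant was again higher (1.13 ± 0.22, FDR = 0.000178). *LOX3* overlapped at Days 0 and 4 (0.58 ± 0.23 and 0.45 ± 0.23, neither called) and was higher in the mutant at Day 6 (1.14 ± 0.23, FDR = 0.000303). *LOX2* overlapped at Day 0 (0.11 ± 0.20, FDR = 0.776, and -0.18 without *nph4-1 arf19-1* Day 0 replicate 2) and was lower in the mutant at Day 4 (-1.41 ± 0.21, FDR = 2.57e-05) and Day 6 (-1.23 ± 0.21, FDR = 5.08e-05), with all mutant libraries below all WT libraries on both days. Both mesophyll markers together also lay lower in the mutant at Day 6 (109 to 199 CPM, beside 270 to 407 CPM in WT) and overlapped at Day 4 (126 to 194 and 107 to 264 CPM), and their part in the *LOX2* difference was not tested. At Day 6 the 4 lipoxygenase genes therefore split, with *LOX3*, *LOX4* and *LOX6* higher and *LOX2* lower in the mutant.

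*AOS* was higher in the mutant at Day 0 (0.76 ± 0.14, FDR = 0.000617), by 1.69-fold. The difference was smaller and not called at Day 4 (0.41 ± 0.14, FDR = 0.0217) or Day 6 (0.19 ± 0.14, FDR = 0.243, and -0.20 with library totals alone). At Day 4, however, the groups did not overlap, and the difference was called without WT Day 4 replicate 3. The change of the *AOS* difference with time was not called (genotype-by-time terms -0.35 ± 0.19, FDR = 0.202, and -0.57 ± 0.19, FDR = 0.0249). *AOC3* was at 1.08 ± 0.15 at Day 0 (2.11-fold, FDR = 3.58e-05) and without a call afterwards (-0.16 ± 0.15 and 0.32 ± 0.15). *AOC2* was called in culture and not at Day 0: it was 1.95-fold higher in the mutant at Day 4 (0.96 ± 0.16, FDR = 0.000107) and 1.77-fold higher at Day 6 (0.82 ± 0.17, FDR = 0.00042, and 0.43 and no longer called with library totals alone). *AOC1* was not called on any day, with values of 0.47 ± 0.20, -0.06 ± 0.21 and 0.20 ± 0.23.

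*AOC4* was lower in the mutant by 3.8-fold at Day 4 (-1.93 ± 0.16, FDR = 3.58e-08) and 3.19-fold at Day 6 (-1.67 ± 0.15, FDR = 1.67e-08). The highest mutant library in culture (28.3 CPM) was below the lowest of WT (57.8 CPM), while at Day 0 the groups overlapped (-0.40 ± 0.43). *OPR3* was not called at Days 0 and 4 (0.32 ± 0.14 and -0.28 ± 0.14). At Day 6 it was 1.43-fold higher in the mutant (0.52 ± 0.14, FDR = 0.00314), a call that was lost without WT Day 6 replicate 2 or *nph4-1 arf19-1* Day 6 replicate 1 or 2 and at 0.12 with library totals alone.

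Values of 1 library and of marker genes moved with the Day 0 differences. Replicate 2 of *nph4-1 arf19-1* at Day 0 was the highest of its group for *LOX2*, *LOX3*, *LOX4*, *LOX6*, *AOS*, *AOC1*, *AOC2*, *AOC3* and *OPR3*, and its summed mesophyll markers were also the highest in the series at 1515 CPM. Both mesophyll markers together were at 654 to 1515 CPM in the mutant and 424 to 624 CPM in WT at Day 0. Without that library the Day 0 differences were still called for *LOX4* (1.78), *LOX6* (1.52), *AOS* (0.66) and *AOC3* (0.95). The part of the markers in these differences was not tested.

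**Figure D4:**
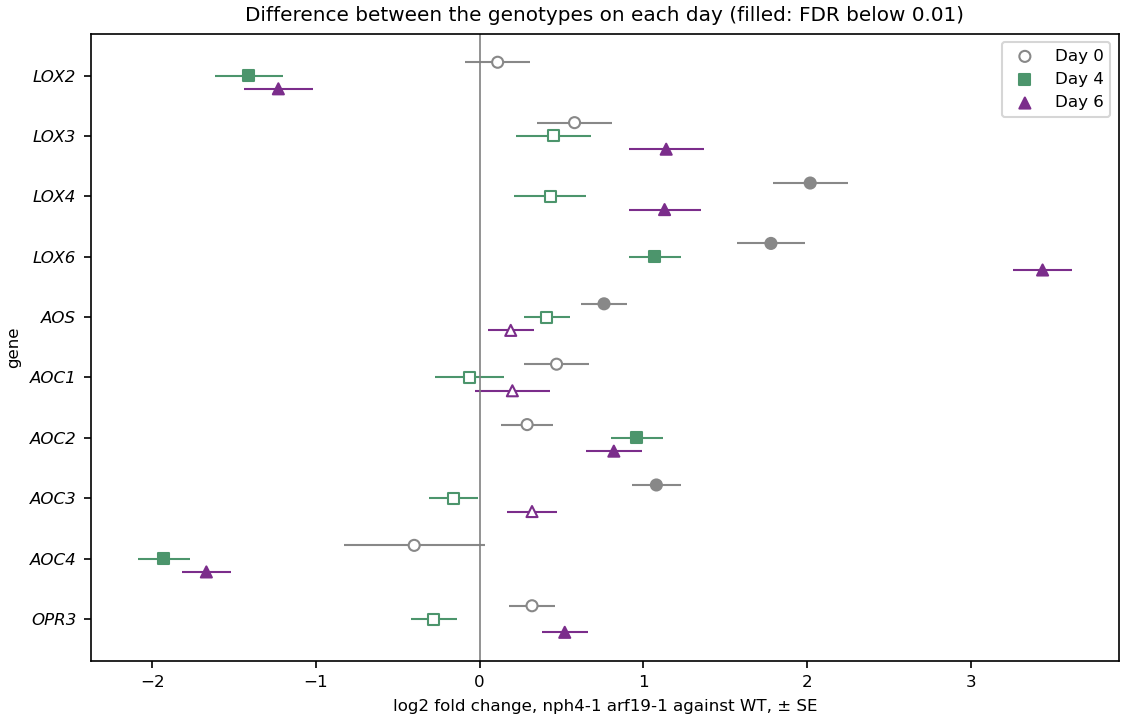
Log2 fold change of each gene in *nph4-1 arf19-1* over WT on Days 0, 4 and 6, with bars of ± 1 SE. *LOX6* is above 1 on all 3 days and reaches 3.44 at Day 6, and *LOX2* and *AOC4* are below -1 at Days 4 and 6.

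Whether a gene's change in culture differed between the genotypes was tested as a genotype-by-time term. From Day 0 to Day 4, 3 of the 10 genes were called (12.8% of all variants), and all 3 were lower in the mutant than the WT change gave (6.73% of all variants were called higher and 6.09% lower). *LOX2* rose in WT and not in the mutant, which gave a difference of changes of -1.52 ± 0.29 (FDR = 0.000918), and the values for *LOX4* and *AOC3* were -1.60 ± 0.31 (FDR = 0.00104) and -1.24 ± 0.21 (FDR = 0.000305). Without *nph4-1 arf19-1* Day 4 replicate 3 the count was 5, with *AOC4* and *OPR3* added. From Day 0 to Day 6, 3 were called (26.3% of all variants, 14.6% higher and 11.7% lower). *LOX6* was higher (1.66 ± 0.27, FDR = 8.79e-05) and *LOX2* lower (-1.34 ± 0.29, FDR = 0.00125), and *AOC3* was lower at -0.76 ± 0.21 (FDR = 0.00644), a call that was lost when any 1 of 7 of the 12 libraries was left out (FDR 0.012 to 0.0282, all but WT Day 0 replicate 2, *nph4-1 arf19-1* Day 0 replicates 1 and 3, WT Day 6 replicate 2 and *nph4-1 arf19-1* Day 6 replicate 2). The terms of *AOC4* were -1.53 ± 0.48 and -1.28 ± 0.47 and missed the threshold (FDR = 0.0256 and 0.0385). *LOX3* at Day 6 (0.56 ± 0.32) was called only without *nph4-1 arf19-1* Day 0 replicate 2, at 1.04, and *LOX4* at Day 6 (-0.89 ± 0.31, FDR = 0.0275) was called at -1.12 without WT Day 0 replicate 2 and at -1.17 with library totals alone. None of the terms called was beyond 2 in size, as were 2.76% and 7.24% of all variants to Days 4 and 6. The medians of the 10 genes were -0.65 and -0.42, beside -0.01 and -0.01 over all variants, and the Day 6 terms again cannot be told apart from yucasin.

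Around the 10 genes stand others of the pathway, taken as 6 lists of 46 genes: enzymes that release or desaturate the fatty acid, the steps after *OPR3*, conjugation and turnover, signalling, response genes, and relatives outside the branch. Of the 36 genes with enough reads, 6 were higher and 26 lower in WT at Day 6 than at Day 0 (median log2FC -1.55, beside 0.23 over all variants), where 81.6% of all variants were called, 43.9% higher and 37.7% lower. In the mutant 9 were higher and 27 lower (-1.33, beside 0.21), where 76.1% of all variants were called, 40.2% higher and 35.9% lower. The counts of single lists in WT at Day 6 given next have the same WT background. With library totals alone the splits were 11 higher and 18 lower in WT and 9 higher and 16 lower in the mutant. Between the genotypes at Day 6, 14 were higher and 2 lower in the mutant (median 0.33, beside -0.04), a split that became 8 and 8 with library totals alone. That number called is near the background of 47.4% of all variants (24% higher and 23.4% lower), and genotype and yucasin cannot be told apart in it.

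Upstream of the lipoxygenases, all 4 tested genes were lower in WT at Day 6, among them *FAD7*, a plastid desaturase that makes linolenic acid (-2.17 ± 0.16), and *AT3G62590* (-2.66 ± 0.14). Both were higher in the mutant than in WT at Day 6 (0.71 ± 0.15 and 1.02 ± 0.15). After *OPR3*, 5 of 8 genes were lower and 1 higher in WT at Day 6. *ACX1*, an acyl-CoA oxidase of the beta-oxidation steps, fell from 4256 to 217 CPM (-4.30 ± 0.14), and *KAT2*, the thiolase of the same steps, from 3055 to 520 (-2.55 ± 0.13). *AIM1*, which encodes a multifunctional beta-oxidation protein, was at 473 CPM in the mutant and 176 CPM in WT at Day 6 (1.43 ± 0.10).

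Of 10 tested genes for conjugation and turnover, 2 were higher and 8 lower in WT at Day 6 (43.9% and 37.7% of all variants). *JAR1* fell (-1.44 ± 0.14 in WT and -1.38 ± 0.14 in the mutant). *AT5G05600* also fell (-4.29 ± 0.15), whereas *ST2A*, a sulfotransferase for hydroxylated jasmonate, rose from 4.45 to 639 CPM in WT (7.17 ± 0.18) and from 2.56 to 142 CPM in the mutant (5.77 ± 0.19), and was lower in the mutant at Day 6 (-2.17 ± 0.13). *JRG21* was 2.95 ± 0.14 higher in the mutant at Day 6, with 917 CPM against 119.

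All 4 signalling genes were called in WT at Day 6, 1 higher and 3 lower. *COI1*, the receptor, was at -1.02 ± 0.14 and *MYC2*, the main transcription factor of the response, at -0.78 ± 0.10, but both turned with library totals alone (0.15 and 0.39). *MYC3*, a relative of *MYC2*, was at -1.57 ± 0.12, and *MYC4*, another, rose from 1.09 to 7.15 CPM (2.64 ± 0.31). Of 6 tested response genes 1 was higher and 4 lower in WT at Day 6. *CORI3*, a cystine lyase induced by jasmonate, fell from 1016 to 112 CPM (-3.18 ± 0.36) and *ANAC055*, a NAC transcription factor, from 579 to 74 CPM (-2.97 ± 0.29). At Day 6 *CORI3* was lower in the mutant (-2.19 ± 0.37) and *ANAC055* higher (1.64 ± 0.28). *VSP2*, a vegetative storage protein gene widely used as a jasmonate marker, was at 2.81 CPM in WT at Day 0 and 0.464 CPM at Day 6, near the floor.

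Among the relatives outside the branch, *LOX1*, a lipoxygenase that acts at another carbon of the fatty acid, was at 0.654 CPM in WT at Day 0, 74.2 at Day 4 and 44.4 at Day 6, and at 2.12, 1008 and 3587 CPM in the mutant (6.34 ± 0.21 between the genotypes at Day 6, FDR = 5.13e-14). *OPR1* and *OPR2*, reductases that hardly act on the jasmonate precursor, fell in WT by Day 6, *OPR1* from 12137 to 389 CPM (-4.96 ± 0.19) and *OPR2* from 742 to 46.6 CPM (-3.99 ± 0.16). *OPR1* was at 391 CPM in the mutant at Day 6 and overlapped with WT, and *OPR2* was higher there (0.89 ± 0.15).

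**Figure D5:**
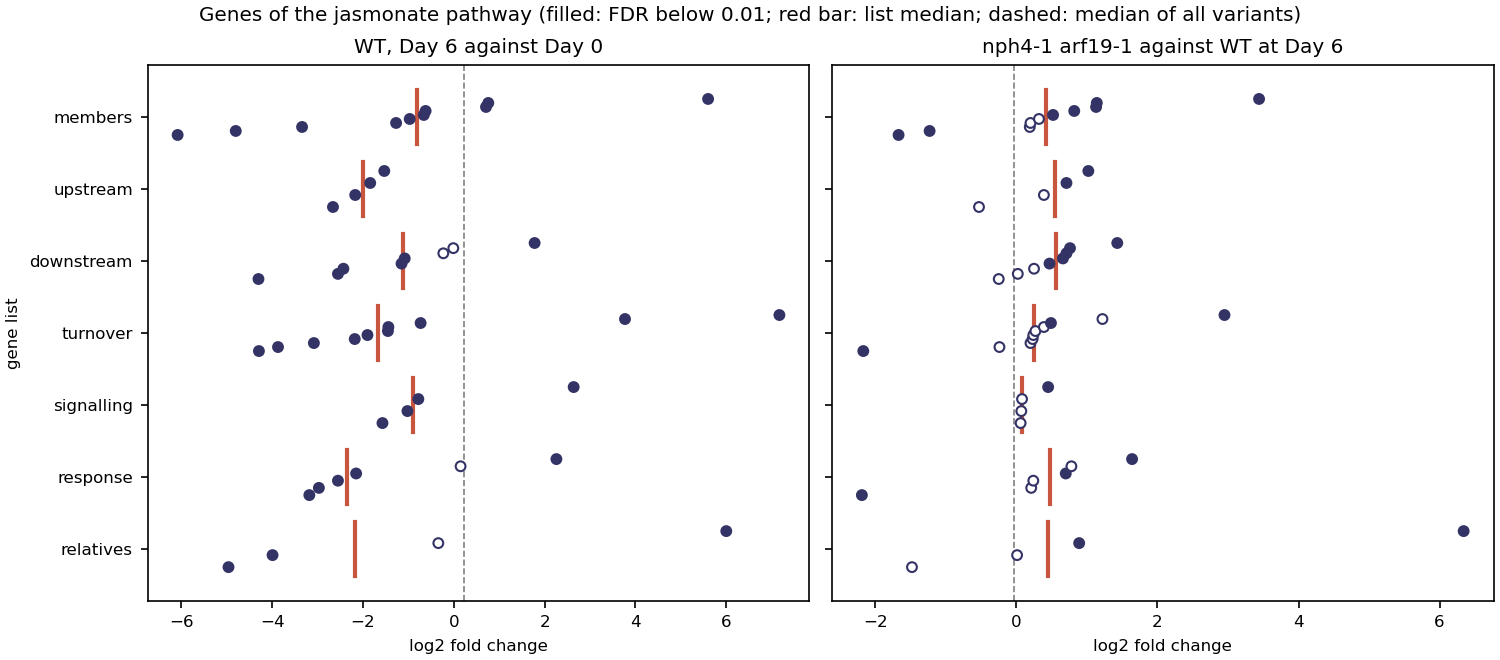
Log2 fold change of the tested genes of each pathway list in WT at Day 6 against Day 0 and in *nph4-1 arf19-1* against WT at Day 6, with 1 point per gene, a red bar at each list's median and a dashed line at the median of all variants, and with the 10 biosynthesis genes in the top row for comparison. Of the other lists, in the first comparison 26 of 36 genes are called lower and 6 higher, and in the second 14 are called higher and 2 lower.

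The genes whose levels were most like those of *LOX2*, *AOS* and *OPR3* over the 18 libraries were found by Pearson's r of log2 CPM. For *LOX2* they were *HPL1* (0.927), *AT1G65240* (0.886), *AT1G22610* (0.882), *CESA6* (0.880) and *BZIP17* (0.866). For *AOS* they were *AT3G62240*, *AT3G01820* and *AT2G42270* (0.992 each), *AMT2* and *DGK2* (0.991 each), and for *OPR3* *AT2G24600* (0.891), *CRK14* (0.882), *AT5G55050* (0.880), *RLP6* (0.873) and *AT3G51450* (0.864). These values describe libraries that share day, genotype and scaling.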

How the data were processed

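RNA was sequenced single-end from 18 protoplast libraries, and the authors deposited tag counts per TAIR10 splice variant, with a library total, from reads mapped uniquely with Bowtie 0.12.9 (per the labels and methods). Read length and counting strand are not given in the sources used here, and the counts summed over variants were 1.45 to 1.51 times the totals, so that splice variants of a gene share reads.

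The deposited counts were tested with edgeR 4.0.16 (R 4.3.3, limma 3.58.1): library totals, TMM factors, filterByExpr (minimum count 10, minimum total 15), 1 quasi-likelihood fit of the 6 group means over 25202 variants, Benjamini-Hochberg FDR below 0.01. The common biological coefficient of variation was 0.127. CPM are TMM-scaled, and log2 CPM use a prior count of 2. The p-values rest on the spread between replicates, estimated for each variant over all 6 groups together and moderated across variants. They do not measure the spread of the compared groups alone. None of the 3 replicates of a group matched another within counting noise (lowest chi-square per degree of freedom 4.61). In simulated counts of 24561 variants, 100 were given a 2-fold and 100 a 4-fold change in the Day 6 mutant group. For *nph4-1 arf19-1* against WT at Day 6, 89% and 100% of these were recovered, and for the genotype-by-time term to Day 6 49% and 100%. The changed variants were drawn from those above a count limit. All others had the same mean in the 6 groups, and the common coefficient of variation was used throughout. The rates therefore do not cover genes near the floor, wide shifts between groups or spread that differs between genes.

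Alternatives were library totals alone, summed counts as library size, no filter, a mean count of at least 10, 1 variant per gene, a replicate block, only the groups compared, DESeq2 1.42.0, other thresholds and each replicate left out. Sequences and gene models are from RefSeq TAIR10.1, read with Biopython 1.88. The members, lists and markers were chosen with earlier results of these data known, and the named list genes are the 2 with the largest changes in each list at Day 6 (WT against Day 0, and mutant against WT) plus *JAR1*, *COI1*, *MYC2* and *VSP2*. One further list gene is not analysed here.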

Additional observations from a re-analysis of the deposited data

Results flagged for a closer look

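For 4 genes the change in culture differed between the genotypes by the genotype-by-time test itself, in which the mutant's change minus the WT change is given in log2 units. To each day 3 of the 10 genes were called, where 12.8% (Day 4) and 26.3% (Day 6) of all variants were called. From Day 0 to Day 4 the difference was -1.52 for *LOX2*, -1.60 for *LOX4* and -1.24 for *AOC3*. *LOX4* and *AOC3* were higher in the mutant at Day 0 (2.02 and 1.08) and were not called between the genotypes at Day 4 (0.43 and -0.16). From Day 0 to Day 6 the difference was -1.34 for *LOX2*, 1.66 for *LOX6* and -0.76 for *AOC3*. That *AOC3* call was lost when any 1 of 7 of the 12 libraries was left out. Genotype and yucasin cannot be told apart in the Day 6 values.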

How the results depend on the processing

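Counts of called genes under a limit of 2 on the size of log2FC as well were 4 (WT Day 6 against Day 0), 4 (*nph4-1 arf19-1* Day 4 against Day 0), 1 (its Day 6 against Day 4), 1 (genotypes at Day 0) and 1 (genotypes at Day 6). They were 0 for WT Day 6 against Day 4, the genotypes at Day 4 and both genotype-by-time terms in edgeR and also in DESeq2, where edgeR gave 8, 5, 7 and 7 genes at an unadjusted p under 0.05. At FDR below 0.05 the genotype-by-time counts were 6 and 6. The shares of all variants at an unadjusted p under 0.05 and at FDR below 0.05 were not taken. The counts at these looser limits therefore have no background beside them and cannot be read as a result about the 10 genes. With library totals alone the Day 6 term called 5 at FDR below 0.01, where 6826 of 25202 variants were called. Leaving out 1 library gave 7 to 8, 7 to 10 and 7 to 8 calls in WT (Day 4 and Day 6 against Day 0, Day 6 against Day 4), 6 to 8, 7 to 8 and 4 to 5 in the mutant, 4 to 4, 4 to 5 and 6 to 7 between the genotypes on Days 0, 4 and 6, and 3 to 5 and 2 to 4 for the terms.

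With library totals alone log2FC changed sign for *LOX3* (0.61) and *AOC3* (0.78, FDR = 4.43e-05) in WT at Day 4, for *LOX2* (0.51), *AOC3* (0.20), *OPR3* (0.55), *MYC2* (0.39), *COI1* (0.15) and *AIM1* (0.02) in WT at Day 6, for *LOX2* (0.37), *LOX3* (0.45), *LOX4* (0.52) and *OPR3* (0.79) in the mutant at Day 4 and for *LOX3* (0.18), *LOX4* (0.77), *OPR3* (0.48), *ARF19* (0.53), *MYC2* (0.25) and *COI1* (0.15) in the mutant at Day 6, all against Day 0. Between the genotypes it changed for *LOX2* at Day 0 (-0.01), for *AOS* (-0.20), *AOC1* (-0.20), *AOC3* (-0.08), *MYC2* (-0.34), *OPR1* (-0.39), *COI1* (-0.32), *JAR1* (-0.17), *MYC4* (-0.33) and *VSP2* (-0.17) at Day 6, and for the *OPR3* term to Day 6 (-0.07). The shift of the median over all variants under that scaling is given with the results.

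Leaving out 1 library also turned values that were not called: *LOX4* in the mutant at Day 6 ran from -0.27 to 0.15, *LOX2* between the genotypes at Day 0 from -0.18 to 0.23, *AOC1* from -0.21 to 0.07 at Day 4 and -0.01 to 0.57 at Day 6, and the terms of *LOX3* to Day 4 from -0.32 to 0.33 and of *AOC1* to Day 6 from -0.46 to 0.12. At Day 6 between the genotypes *OPR1* reached -0.08, *MYC4* -0.06 and *VSP2* -0.38, with *MYC4* up to 0.17 and *VSP2* up to 0.47.

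Taken over all groups, the replicate numbers showed no common pairing: deviations from group means had a median correlation of 0.00347 for the same number and -0.00135 for other numbers. Of the 18 libraries, 8 correlated best with their own number. Same-numbered WT and mutant libraries of a day ran from -0.068 to 0.272, and pairing within a day was not tested. With the replicate block the counts fell from 8 to 7 (WT Day 6 against Day 4), 7 to 6, 9 to 8 and 5 to 4 (the mutant's 3 comparisons), and the other 7 counts were the same.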
